A study of Homo sapiens with 30 samples.

Results

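MALAT1 and NEAT1 are neighbouring long non-coding RNA genes of chromosome 11 whose transcripts stay in the nucleus. They were taken by symbol from a run-on count table of 26475 gene symbols, of which they are 2. To these were added every deposited peak that overlapped the stretch of chromosome 11 (hg38) holding both genes, which came to 11 of 25503 peaks in 15 lists. The study used HT1080, an established human fibrosarcoma line grown in DMEM with serum at passage 10 to 15, and asked about the role of hNABP2 (hSSB1), a single-stranded DNA-binding protein, in transcription. Global run-on sequencing, in which nuclei extend engaged transcripts with a BrdU-tagged nucleotide and the tagged RNA is pulled down with an antibody, was done on 3 repeats each of WT, hNABP2 KO and hNABP1 KO cells, with nucleotides (NTP) and without (no NTP), 18 libraries in 6 groups. WT cells also gave chromatin immunoprecipitation (ChIP) with a homemade hNABP2 antibody in 2 repeats, and WT and hNABP2 KO cells gave 2 repeats each of DRIP, a pull-down of RNA-DNA hybrids with the S9.6 antibody. The series also holds WT ChIP libraries without the hNABP2 antibody (IgG) and DRIP libraries with RNase H of WT and hNABP2 KO, 2 repeats each. Apart from RNase H in those DRIP libraries, no group received a specific treatment. Neither the kind of knockout nor the number of clones is stated in the labels, and the protocols mention 2 independent experiments, so p-values measure only the spread between these libraries, which may be technical.

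MALAT1 RNA gathers in nuclear speckles, the bodies that hold splicing factors. Its 3′ end is made by an RNase P cut that frees the small tRNA-like mascRNA, and an antisense transcript, TALAM1, runs across the same stretch. NEAT1 RNA is the scaffold of paraspeckles and is made as a short and a long transcript from the same start; the long one builds the body together with proteins such as NONO and SFPQ. Both genes are known as strongly transcribed in cultured human cells. In the RefSeq annotation of GRCh38.p14, NEAT1 spans chr11:65422798-65445540 on the plus strand (22743 bp) and MALAT1 spans chr11:65497738-65506516 on the plus strand (8779 bp), 52.2 kb further on.

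The run-on libraries were very shallow. Repeat 1 held 6695 to 19581 counts per library, repeat 2 held 5272 to 8397 and repeat 3 held 19247 to 164357, and values were scaled to each library's total as CPM, the usual per-library scale. In repeat 2, 1 count stands for over 100 CPM. Between 2402 and 20345 genes had a count, and ribosomal RNA genes took 0.277% to 13.1% of counts. Mesenchymal marker genes of HT1080 took 0.177% to 4.20% of counts, epithelial markers 0.0104% to 0.292%, and leukocyte and neural markers at most 0.0623% and 0.0628%. Most of the mesenchymal counts came from COL5A1, a collagen gene, with 2806 of 3780 over the 18 libraries, and the deepest epithelial marker, KRT8, had 197 against 214 for VIM. Counts of the targeted genes did not follow the labels. NABP2, with NTP, had 4, 0 and 8 counts in WT repeats 1, 2 and 3, 4, 3 and 15 in the libraries labelled hNABP2 KO, and 0, 0 and 6 in those labelled hNABP1 KO. NABP1 had 1, 0 and 19, 2, 0 and 9, and 0, 1 and 18 in the same order. Run-on counts over a whole gene do not check a small deletion, so "hNABP2 KO" and "hNABP1 KO" below mean the libraries that carry those labels.

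The strongest mark at the pair was hNABP2 ChIP signal over the MALAT1 start. The RefSeq promoter tables hold 2 windows of 300 bases for MALAT1 (250 before a start and 50 after it), and both are printed because the deposited peaks separate them. Capitals mark every match, on either strand, to 4 short promoter motifs. The GC box was searched as GGGCGG, which 45% of all RefSeq windows of this length hold. The TATA box was searched as TATAAA, which is held by 11.5% of them. The box bound by NF-Y was searched as CCAAT, present in 34.6% of the same windows. The E-box was searched as CACGTG, present in 7.26%.
MALAT1 upstream start, chr11:65497488-65497787, plus strand: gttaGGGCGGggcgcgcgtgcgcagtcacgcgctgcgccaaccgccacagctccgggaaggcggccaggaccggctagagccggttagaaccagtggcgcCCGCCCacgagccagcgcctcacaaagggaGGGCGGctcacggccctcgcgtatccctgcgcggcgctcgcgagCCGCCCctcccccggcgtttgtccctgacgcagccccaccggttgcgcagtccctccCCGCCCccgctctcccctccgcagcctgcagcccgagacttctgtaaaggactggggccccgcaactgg
MALAT1 downstream start, chr11:65498795-65499094, plus strand: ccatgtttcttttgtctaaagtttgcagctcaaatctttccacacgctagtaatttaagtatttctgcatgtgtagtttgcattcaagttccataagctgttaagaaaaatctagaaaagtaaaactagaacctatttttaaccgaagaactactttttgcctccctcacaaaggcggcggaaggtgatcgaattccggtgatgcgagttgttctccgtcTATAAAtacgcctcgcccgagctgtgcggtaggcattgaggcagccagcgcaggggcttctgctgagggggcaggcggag
The upstream window lies wholly inside a WT ChIP peak of repeat 1, chr11:65497399-65497800, whose summit falls 174 bp before the MALAT1 start. The window is 73.7% G or C with 37 CpG, against medians of 58.7% and 14 over all 35116 RefSeq windows of that length. It holds 5 GC boxes and no TATA box. The downstream window is 46% G or C with 14 CpG, holds 1 TATA box at base 221 and no GC box, and no peak overlapped it; the nearest ended 277 bp away. Neither window held the NF-Y box or the E-box. A match describes letters only and names no bound factor.

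The ChIP peak over the upstream MALAT1 start had 9.87-fold enrichment and a −log10 q of 172 as the authors' peak caller gave them. It ranked 30 by q and 52 by fold among the 10055 ChIP repeat 1 peaks with values. A smaller MALAT1 peak, chr11:65498317-65498518, had its summit 638 bp inside the gene, with fold 4.22 and −log10 q 10.6. Both NEAT1 peaks flanked the gene start. The peak chr11:65422095-65422475 had its summit 520 bp before the NEAT1 start with fold 4.85 and −log10 q 43.5, and the peak chr11:65422829-65423583 had its summit 650 bp inside NEAT1 with fold 6.30 and −log10 q 23.9. Thus each gene had a peak summit on either side of its start in that list, and the larger MALAT1 peak covered the start itself. In the same list 23.9% of all RefSeq promoter windows overlapped a peak. That share does not count summits on both sides of a start, and the RefSeq windows include none for NEAT1.

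ChIP repeat 2 held 2832 peaks and none at the pair; its nearest summit lay 68.0 kb away from the nearer gene start, and 5.35% of promoter windows overlapped a peak in that list. The ChIP enrichment at MALAT1 and NEAT1 therefore rests on 1 of the 2 lists, which were called separately per library and differ in length. Between the genes, ChIP repeat 1 had a peak at the start of the non-coding gene ENEMAL, chr11:65477108-65477666, with fold 2.82, and another inside LINC02736, chr11:65487560-65487875, with fold 11.1, which ranked 34 by fold. DRIP gave no peak in the window in any of 4 lists of 13 to 173 peaks. In those lists 0.0379% to 0.358% of gene spans held a peak; in hNABP2 KO repeat 2, the longest list of that genotype, the share was 0.324%.

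**Figure D1:**
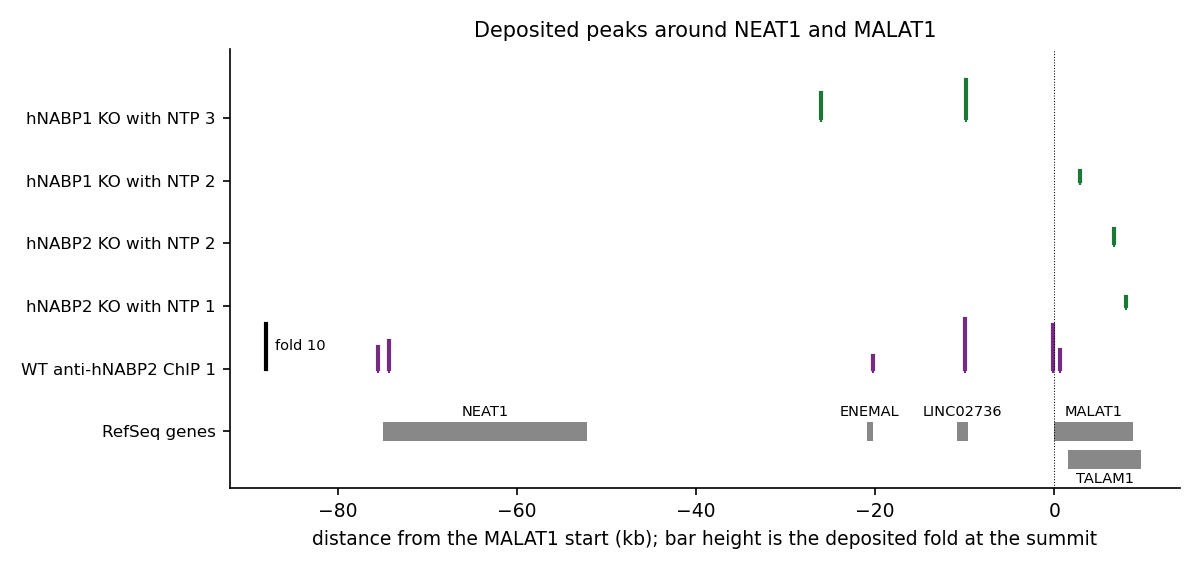
Deposited peaks around NEAT1 and MALAT1, placed by distance from the MALAT1 start in kb, with bar height showing each peak's fold enrichment as the authors gave it (WT ChIP purple, run-on green; the black bar is a fold of 10) and gene spans in grey. ChIP repeat 1 peaks sit at both gene starts, and run-on peaks inside MALAT1 appear in 3 libraries.

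Run-on peaks in MALAT1 came from knockout-labelled libraries and lay along the gene body rather than at its start. In hNABP2 KO repeat 1 a peak at chr11:65505697-65506002 had fold 1.95 and −log10 q 7.25 and ended 115 bp short of mascRNA. In hNABP2 KO repeat 2 a peak at chr11:65504348-65504500 had fold 3.21 and −log10 q 8.25. In hNABP1 KO repeat 2 a peak at chr11:65500476-65500705 had fold 2.21 and −log10 q 7.69. The peaks lie where MALAT1 and TALAM1 overlap, and peak lists carry no strand. WT lists of 94, 195 and 264 peaks held none in either gene, while 0.261%, 0.737% and 0.981% of gene spans held a peak there. In the lists of hNABP2 KO repeats 1 and 2 and hNABP1 KO repeat 2 the shares were 0.564%, 1.17% and 1.5%. By fold these peaks ranked 228 of 243, 169 of 338 and 424 of 431 in their lists, and by q 78, 32 and 23. Their libraries held 36, 4 and 2 MALAT1 counts, while WT repeats 1, 2 and 3 with NTP held 11, 6 and 30. The q values of the peaks did not follow these counts. Whether the reads under the peaks are those counted for MALAT1 was not tested. The 3 MALAT1 peaks do not overlap each other, and whether WT and knockout differ in them was not tested. The list of hNABP2 KO repeat 3 held 95 peaks, none at the pair, and 0.227% of gene spans held a peak there. The list of hNABP1 KO repeat 1 held 518 peaks, also none at the pair, and 1.61% of gene spans held a peak there. NEAT1 had no run-on peak in any list.

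The hNABP1 KO repeat 3 list, with 9965 peaks the longest of the run-on lists, had none in MALAT1 or NEAT1, where 26.6% of gene spans held a peak. It had 2 between them, at chr11:65471417-65471823 (fold 5.67) and chr11:65487568-65488014 (fold 8.51). The second overlapped the ChIP peak of LINC02736 by 308 bp with summits 40 bp apart. In that list 47.1% of peaks overlapped a ChIP repeat 1 peak.

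MALAT1 counts were low, and CPM spread widely between repeats of 1 group. With NTP, WT repeats 1, 2 and 3 gave 11, 6 and 30 counts, or 918, 1020 and 183 CPM (707 ± 457 CPM, mean ± SD, n = 3). The hNABP2 KO libraries with NTP gave 36, 4 and 18 counts, or 1839, 608 and 155 CPM (867 ± 871, n = 3). The hNABP1 KO libraries with NTP gave 7, 2 and 5 counts, or 631, 265 and 43.3 CPM (313 ± 297, n = 3). In each of these groups repeat 3 was the lowest in CPM, and the 3 groups overlapped.

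Without NTP, which is the background of the run-on, the MALAT1 mean was higher than with NTP in WT and lower in both knockout-labelled groups. WT gave 12, 5 and 15 counts, or 1302, 948 and 779 CPM (1010 ± 266, n = 3). The hNABP2 KO libraries gave 8, 7 and 8 counts, or 759, 834 and 101 CPM (564 ± 403, n = 3). The hNABP1 KO libraries gave 2, 2 and 2 counts, or 299, 314 and 83.8 CPM (232 ± 129, n = 3). Here all 3 hNABP1 KO libraries lay below all 3 WT libraries, while hNABP2 KO overlapped WT. Of 211 genes that passed edgeR's filter on low counts, 0.474%, which is MALAT1 alone, lay wholly below WT in this way, and 0.691% of the 14905 genes with 10 or more counts that were compared. By group mean the order of MALAT1 levels ran from WT no NTP through hNABP2 KO with NTP, WT with NTP, hNABP2 KO no NTP and hNABP1 KO with NTP to hNABP1 KO no NTP, and no neighbours in it differed by more than the larger of their SDs.

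NEAT1 showed no such order. With NTP, WT gave 3, 2 and 63 counts, or 250, 340 and 383 CPM (325 ± 67.8, n = 3). The hNABP2 KO libraries gave 9, 0 and 39 counts, or 460, 0 and 336 CPM (265 ± 238, n = 3), where 0 of 6581 counts in repeat 2 allows up to 456 CPM. The hNABP1 KO libraries gave 2, 4 and 31 counts, or 180, 530 and 268 CPM (326 ± 182, n = 3). The group means of WT and hNABP1 KO were nearly equal, and every group overlapped the others.

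Without NTP, NEAT1 in WT gave 4, 3 and 3 counts, or 434, 569 and 156 CPM (386 ± 211, n = 3). The hNABP2 KO libraries gave 0, 4 and 31 counts, or 0, 476 and 390 CPM (289 ± 254, n = 3), where the 0 in repeat 1 allows up to 285 CPM. The hNABP1 KO libraries gave 1, 4 and 2 counts, or 149, 628 and 83.8 CPM (287 ± 297, n = 3). The 6 NEAT1 group means ran from 265 to 386 CPM, and no 2 groups were apart. Intervals and limits from counts cover counting error only.

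**Figure D2:**
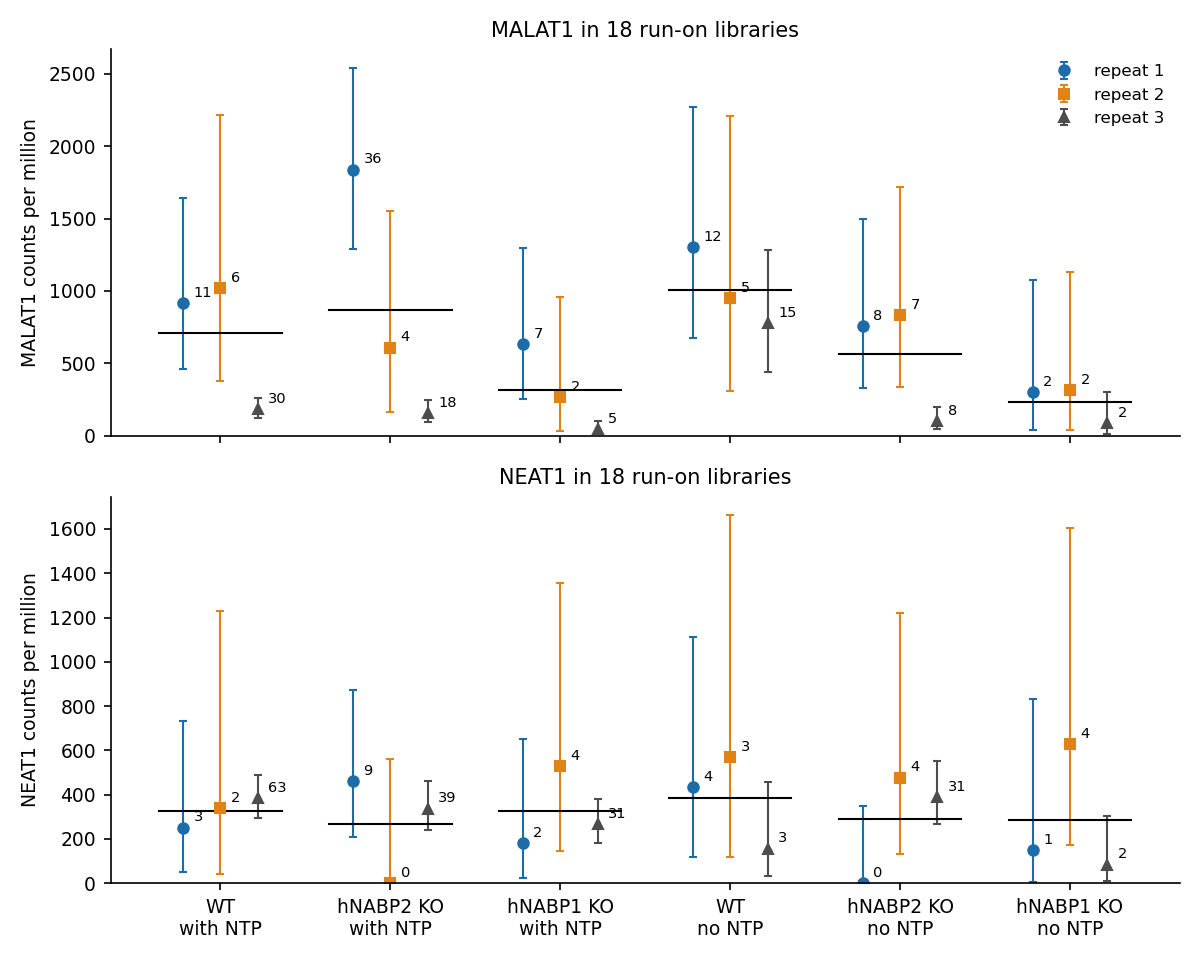
MALAT1 and NEAT1 in each of the 18 run-on libraries, in CPM, with 95% exact count intervals, the count beside each point and a black line at the group mean (repeat 1 blue circles, repeat 2 orange squares, repeat 3 grey triangles). MALAT1 in hNABP1 KO without NTP lies at 83.8 to 314 CPM, below the 779 to 1302 CPM of WT, and NEAT1 groups overlap throughout.

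The comparison of hNABP1 KO with WT asks how counts at the pair differ in cells labelled as lacking the paralogue of hNABP2. Pairs without NTP compare run-on background, so the 6 pairs together do not measure run-on signal alone. Libraries of the same repeat and NTP condition gave MALAT1 CPM ratios, hNABP1 KO over WT, of 0.687 (95% count interval 0.226 to 1.94), 0.260 (0.0256 to 1.45) and 0.237 (0.0718 to 0.617) with NTP for repeats 1, 2 and 3. Without NTP they were 0.230 (0.0249 to 1.03), 0.331 (0.0315 to 2.02) and 0.108 (0.0119 to 0.462). All 6 ratios were below 1, and 2 of the 6 intervals, both from repeat 3, lay wholly below it. Of the 211 filtered genes 1.9% were lower in 6 of 6 such pairs, and 0.0872% of the 14907 genes with 10 or more counts. An exact sign-flip permutation test over the 6 pairs, chosen after seeing the data, gave a mean difference of -1.41 in log2(CPM + 100) with two-sided p = 0.03125, the smallest that 6 pairs can give, and an adjusted p of 0.09375 over the 6 tests of this kind. The 6 pairs come from 3 repeats, each used with and without NTP, and libraries of the same number deviated together, so they are not 6 independent units. Sign flips over 3 repeats cannot give a p below 0.25.

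**Figure D3:**
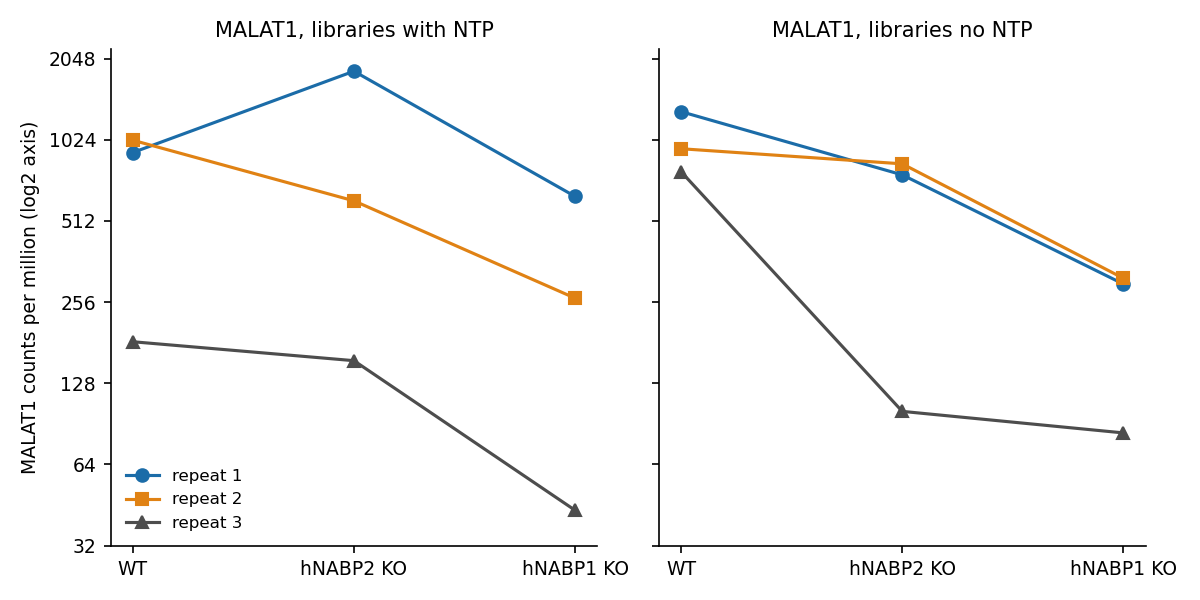
MALAT1 CPM on a log2 axis, with lines joining the WT, hNABP2 KO and hNABP1 KO libraries of the same repeat, in panels with NTP and without. Each of the 6 lines ends lower in hNABP1 KO than in WT and lower than in hNABP2 KO.

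With NTP alone, MALAT1 was not called. In edgeR's quasi-likelihood test on 9 libraries, over the 129 genes that passed the filter, MALAT1 in hNABP1 KO against WT stood at -1.37 on the log2 scale (SE 0.80, adjusted p = 1.00), and 0% of genes were called. At an unadjusted p under 0.05 edgeR gave 1 gene, and DESeq2 and limma voom 2 each, none past adjustment. With 1 library left out the value ran from -2.11 (without hNABP1 KO repeat 1) to -0.99 (without hNABP1 KO repeat 2). With the repeat number as a block, the MALAT1 value was -1.48 (SE 0.52, edgeR adjusted p = 0.414).

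A fit over both NTP conditions, added after seeing the data, called MALAT1 lower in hNABP1 KO with the repeat block and not without it. Without the block the mean of the 2 conditions was -2.13 (SE 0.58, edgeR adjusted p = 0.338). With the block MALAT1 fell by 2.26 on the log2 scale (SE 0.45, edgeR adjusted p = 0.00473), and it was the 1 gene called of 211, or 0.474%. DESeq2 gave an adjusted p of 0.000647, limma voom 0.0136, and edgeR on library totals 0.0105. Each of these fits counted the libraries with and without NTP of the same repeat as separate units. They are not independent units, so these p-values rest on more units than the 3 repeats per genotype. The call was lost without WT no NTP repeat 3 (-1.98, adjusted p = 0.0677 in edgeR) and without hNABP1 KO no NTP repeat 3 (-1.94, 0.0811), and over the 14907 genes with 10 or more counts (-1.88, 0.882). Those 2 libraries, both without NTP and so background of the run-on, had 19247 and 23865 counts and gave 15 and 2 MALAT1 counts.

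NEAT1 did not pass the filter on low counts and was tested among 13447 genes with 10 or more counts. In hNABP1 KO against WT with NTP it stood at 0.06 on the log2 scale (SE 1.21, edgeR adjusted p = 1.00), with 0% of genes called and 163 at an unadjusted p under 0.05 (limma voom 431, DESeq2 0). Same-repeat ratios of NEAT1 ran from 0.344 to 1.56, and all 6 count intervals held 1. NEAT1 was lower in hNABP1 KO in 4 of 6 pairs. The SE of 1.21, which is approximate for so small a change, is wider than a 2-fold change in either direction.

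For hNABP2 KO against WT, the comparison the study's title points to, neither RNA was called. MALAT1 ratios of the same repeat, hNABP2 KO over WT, were 2.00, 0.596 and 0.851 with NTP and 0.583, 0.879 and 0.129 without. They were below 1 in 5 of 6 pairs, and 1 of the 6 intervals lay off 1, that of repeat 3 without NTP (0.0475 to 0.325). The edgeR value with NTP was 0.26 (SE 0.75, adjusted p = 0.990) and over both conditions with the block -0.45 (SE 0.38, adjusted p = 0.991), so its sign turned with the libraries used. The sign-flip permutation test over the 6 pairs gave -0.48 (exact p = 0.34375), with the same limit on the independence of the pairs.

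NEAT1 in hNABP2 KO against WT stood at 0.11 on the log2 scale (SE 1.20, edgeR adjusted p = 1.00) with NTP, with 0% of genes called and 41 at an unadjusted p under 0.05 (limma voom 319, DESeq2 1). In repeat 3, where the counts were highest, 39 counts in hNABP2 KO stood against 63 in WT, a CPM ratio of 0.878 (0.573 to 1.33). That interval held 1, as did the other 5.

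The knockout-labelled groups were also set against each other. MALAT1 was higher in hNABP2 KO than in hNABP1 KO in 6 of 6 pairs, with ratios of 2.91, 2.30 and 3.59 with NTP and 2.54, 2.66 and 1.20 without, and 2 of the 6 intervals lay above 1. These pairs share the hNABP1 KO libraries with the comparison against WT. Of the 211 filtered genes 0.948% were higher in 6 of 6 pairs. The edgeR value with NTP was 1.63 (SE 0.80, adjusted p = 0.997), and 1.55 with the block (SE 0.50, adjusted p = 0.195). With 1 library left out the value without the block ran from 0.50 (without hNABP2 KO repeat 1) to 2.43 (without hNABP1 KO repeat 1). Over both conditions with the block, with the same limit on independent units, it was 1.81 (SE 0.45, edgeR adjusted p = 0.0434), among 1.42% of genes called. That call was lost with limma voom (adjusted p = 0.176), without the block (0.993), over genes with 10 or more counts (0.561), and in every fit that left out 1 library. NEAT1 had 0.05 (SE 1.20, edgeR adjusted p = 1.00) with NTP, was higher in hNABP2 KO in 3 of 6 pairs, and had 1 interval above 1, that of repeat 3 without NTP (31 against 2 counts, ratio 4.66, 1.19 to 40.2).

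Libraries with and without NTP ask whether run-on labelling adds signal over background at the pair. It was not detectable for either RNA at this depth. For MALAT1 the edgeR log2 change with NTP against no NTP was -0.29 (SE 0.74, adjusted p = 0.997) in WT, 1.16 (SE 0.74, adjusted p = 0.998) in hNABP2 KO and 1.37 (SE 0.87, adjusted p = 0.982) in hNABP1 KO, with a mean of 0.75 (SE 0.45, adjusted p = 0.994) over the genotypes. With 1 library left out these values ran from -0.56 to -0.0094 in WT, where the latter is without WT no NTP repeat 3. They ran from 0.06 to 1.53 in hNABP2 KO and from 0.68 to 1.72 in hNABP1 KO, where each lowest value is without repeat 1 with NTP of that genotype. The mean ran from 0.37 to 0.86, and was lowest without hNABP2 KO with NTP repeat 1. In each of these 4 comparisons 0% of 211 genes were called, with 1, 2, 6 and 6 genes at an unadjusted p under 0.05 by edgeR and 1, 2, 7 and 10 by DESeq2. The NTP effect on MALAT1 was 1.44 greater in hNABP2 KO than in WT (SE 1.04, edgeR adjusted p = 0.997) and 1.66 greater in hNABP1 KO than in WT (SE 1.13, edgeR adjusted p = 0.999), and neither difference was called. Without hNABP2 KO with NTP repeat 1 the first was 0.37.

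In CPM the same comparison for MALAT1 over 9 genotype-by-repeat pairs gave a mean difference of -0.06 in log2(CPM + 100) (exact sign-flip permutation p = 0.832), and for NEAT1 0.05 (exact p = 0.887). For NEAT1, among 14907 genes, the edgeR log2 change was 0.31 in WT, 0.11 (SE 1.12) in hNABP2 KO and 0.85 (SE 1.23) in hNABP1 KO, with a mean of 0.43 (SE 0.68, adjusted p = 0.729) and 0% of genes called. In that fit the median over all genes was itself 1.07. The NEAT1 mean lay below that median by less than its SE, so NEAT1 was not told apart from the median gene. The NTP effect on NEAT1 differed from WT by -0.20 (SE 1.61) in hNABP2 KO and 0.54 (SE 1.70) in hNABP1 KO.

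**Figure D4:**
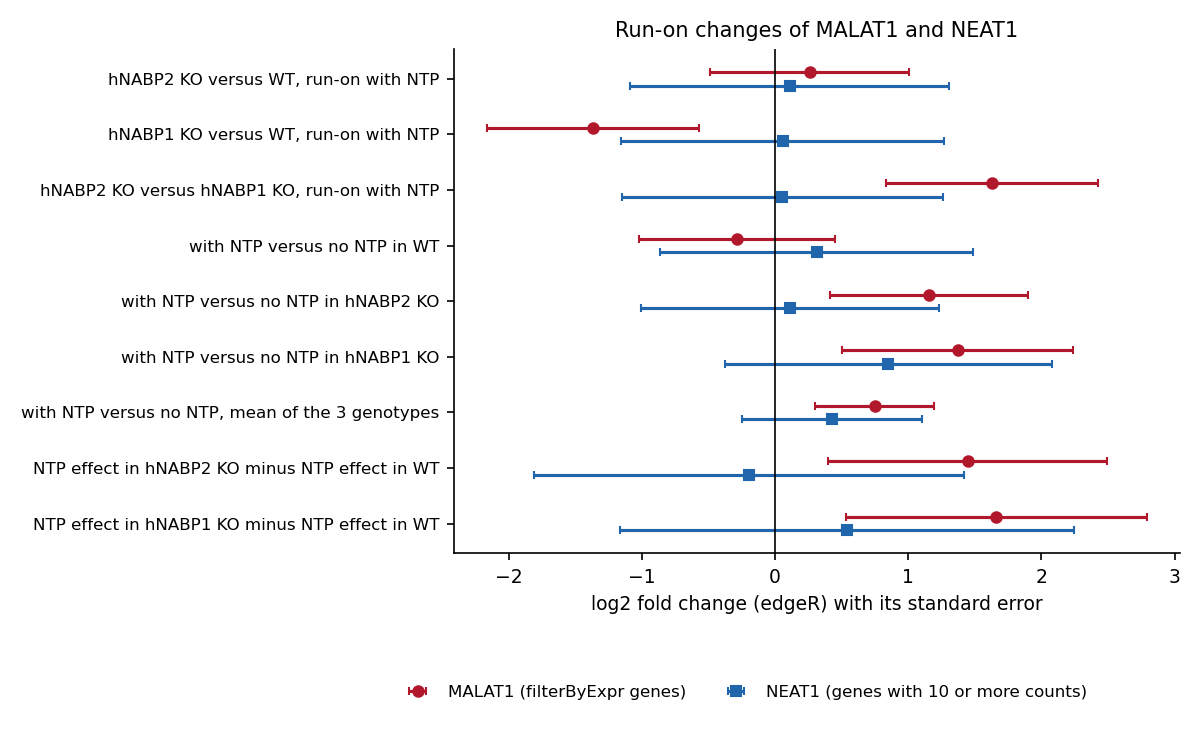
Log2 fold changes from edgeR for 9 comparisons, with an approximate SE derived from the F statistic, MALAT1 as red circles and NEAT1 as blue squares. MALAT1 in hNABP1 KO against WT lies at -1.37 and in hNABP2 KO against hNABP1 KO at 1.63, no point is called, and the NEAT1 errors are wider than those of MALAT1.

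The balance of the pair differed between repeats. In repeats 1 and 2 together MALAT1 had 102 counts and NEAT1 36, and MALAT1 exceeded NEAT1 in 10 of 12 libraries. In repeat 3 MALAT1 had 78 and NEAT1 169, and NEAT1 exceeded MALAT1 in 4 of 6 libraries with 1 equal. Per kb of gene span that is 11.6 counts for MALAT1 and 1.58 for NEAT1 in repeats 1 and 2, and 8.88 and 7.43 in repeat 3. With the 3684 bp of the short NEAT1 transcript in place of the span, NEAT1 had 9.77 counts per kb in repeats 1 and 2 and 45.9 in repeat 3. MALAT1 was thus higher per length in repeats 1 and 2 with the span, and in repeat 3 the order turned with the length assumed. With the short transcript, 11.6 and 9.77 in repeats 1 and 2 lie close and were not tested. Of the 102 MALAT1 counts there, 36 came from hNABP2 KO with NTP repeat 1. The MALAT1 median was 796 CPM over repeats 1 and 2 and 128 CPM in repeat 3, while NEAT1 had medians of 387 and 302 CPM.

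The fall of MALAT1 in repeat 3 depended on the genes that set the scale. With 10 or more counts per gene, MALAT1 in repeat 3 against repeats 1 and 2 fell by 1.28 on the log2 scale (SE 0.52, edgeR adjusted p = 0.0327), where 1.13% of genes were called lower and 49.9% higher. On library totals the change was -2.21 (edgeR adjusted p = 0.00657; 2.33% called lower). Over the 211 filtered genes it was -0.10 (SE 0.35, edgeR adjusted p = 0.820; 10.4% called lower). NEAT1 had 0.74 (edgeR adjusted p = 0.177) and, on library totals, -0.20 (0.768). Without the 2 repeat 3 libraries under 30000 counts NEAT1 rose by 1.44 (edgeR adjusted p = 0.00594) among 56.4% of genes called higher.

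The MALAT1 share of the counts of both genes needs no library size. In the summed counts it was 73.9% in repeats 1 and 2 and 31.6% in repeat 3. WT with NTP gave 78.6%, 75.0% and 32.3% in repeats 1, 2 and 3, and hNABP1 KO with NTP gave 77.8%, 33.3% and 13.9%. The 4 repeat 3 libraries over 70000 counts lay at 13.9% to 32.3%, and the 2 shallow ones at 83.3% (WT no NTP) and 50% (hNABP1 KO no NTP). Between groups, the mean share differed by 8.58 percentage points for hNABP2 KO over WT and by -20.3 for hNABP1 KO over WT with NTP, and the latter was -38.3 without hNABP1 KO with NTP repeat 1 and -6.39 without hNABP1 KO with NTP repeat 3. Exact permutation tests of 3 against 3 libraries gave an adjusted p of 0.8 in all 6 comparisons, where the smallest p possible is 0.1.

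The share was set beside a measure of strand, and no association between the 2 was tested. Over 978 pairs of a gene and its named antisense gene in the table, antisense genes took 56.5% to 74.0% of the pair's counts in repeats 1 and 2. In the 4 deep repeat 3 libraries they took 35.8% to 38.4%, and in the shallow ones 47.8% (WT no NTP) and 61.5% (hNABP1 KO no NTP). Those 4 deep libraries were low in both shares, but the other libraries showed no steady relation. WT no NTP repeat 3 had a MALAT1 share of 83.3% at its antisense share of 47.8%. For hNABP1 KO no NTP repeat 2 the values were 33.3% at 56.5%, and for hNABP2 KO with NTP repeat 1 they were 80% at 57.1%. The library kit keeps strand, but the sources used here do not state how strand entered the counting. TALAM1 has no entry among the counted genes. Reads of MALAT1 and of its antisense partner therefore cannot be told apart. The part of depth and of strand in the repeat 3 values was not tested.

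**Figure D5:**
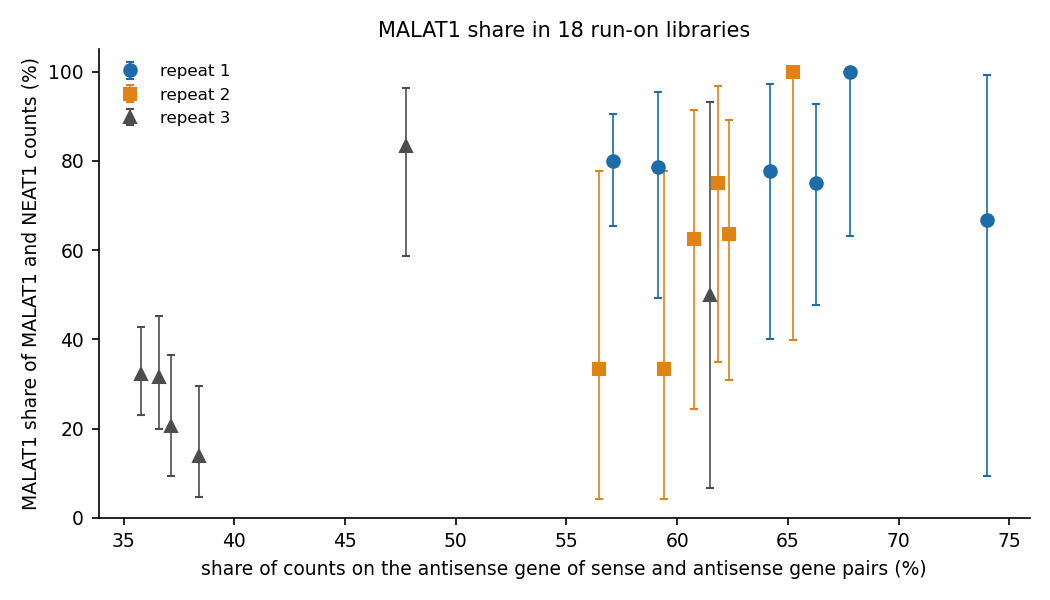
MALAT1 share of the MALAT1 and NEAT1 counts (percent, with 95% exact intervals) against the antisense share of counts in gene pairs (percent), 1 point per run-on library. The 4 deep repeat 3 libraries lie at antisense shares of 35.8% to 38.4%, apart from the other libraries, and at MALAT1 shares of 13.9% to 32.3%.

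Genes whose CPM ran most like each RNA over the 18 libraries were taken among 574 genes with 100 or more counts and a count in at least 9 libraries. For MALAT1 they included PLEC (r = 0.805), a cytoskeletal linker, SNORA73A (0.718), a small nucleolar RNA, RMRP (0.699), the RNA of RNase MRP, and MYH9 (0.698), a non-muscle myosin. PLEC had a median of 2838 CPM in repeats 1 and 2 and 653 CPM in repeat 3, and the other 3 named were likewise lower in repeat 3. For NEAT1 they were MZF1-AS1 (0.739), INTS1 (0.536), a subunit of the Integrator complex, HAGHL (0.518), RPL27A (0.512), a ribosomal protein gene, and PTPN18 (0.507), a phosphatase. MALAT1 with NEAT1 gave r = 0.0401. The libraries share the repeats and their depths, so these values describe the libraries only.

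Other genes of the 2 nuclear bodies and of the locus were tested among genes with 10 or more counts, and none was called in any comparison. For hNABP2 KO and hNABP1 KO against WT with NTP, the median log2 change over all genes was 0.07 and -0.03. Of 25 symbols listed for paraspeckle proteins, older names among them, 22 were tested, with medians of 0.72 and 0.55. Of 20 nuclear speckle proteins 19 were tested, with medians of 0.56 and 0.81. SRRM2, a core protein of speckles and the deepest of these with 298 counts, had 0.62 (SE 1.23) in hNABP2 KO and 1.84 (SE 1.23) in hNABP1 KO. ACIN1 (121 counts) had -0.37 and -1.02, U2AF2 (119 counts), which binds the polypyrimidine tract, -0.999 and 0.68, and SMARCA4 (106 counts), a chromatin remodeller that joins paraspeckles, 0.04 and 0.73.

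Of 21 symbols listed for neighbours on 11q13, older names among them, 15 were tested, with medians of 0.69 in hNABP2 KO and -0.00 in hNABP1 KO. MIR612, a microRNA within NEAT1, had 0 counts. Of 14 genes that make RNA 3′ ends, RNase P among them, 12 were tested, with medians of -0.19 and -0.53. Of 20 other nuclear or long non-coding RNAs 12 were tested, with medians of 0.48 and 0.12. RN7SK, the RNA that keeps P-TEFb inactive, had 1597 counts and -0.04 and 0.25, and RMRP had 1350 counts and -0.79 and -0.67. RN7SL1, the RNA of the signal recognition particle, had 134 counts and 1.75 and 0.27, and KCNQ1OT1, an antisense RNA of an imprinted locus, 138 counts and 0.54 and -0.06. The SEs of the 8 genes named from the lists ran from 1.16 to 1.29 on the log2 scale.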

How the data were processed

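Run-on reads from 18 libraries were counted per gene by the authors into 1 deposited table of raw counts. ChIP and DRIP were sequenced in 4 and 8 libraries; peaks came as deposited lists, called per library, with fold enrichment (ratio), −log10 p and −log10 q by the authors' caller. Tools named per the submitters' processing notes are MACS2 2.2.1, Bowtie2 2.3.5, cutadapt 1.18 and SAMtools, and the build is hg38. The sources used here do not name the counting tool or say which control libraries entered peak calling. Members and gene lists were chosen with earlier results of these data known. Genes named are the pair, the 5 most correlated with each, and list members with 100 or more counts; 1 of these genes is not reported here.

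Genotypes were compared with edgeR 4.0.16 (R 4.3.3): filterByExpr, TMM, quasi-likelihood test, Benjamini-Hochberg adjustment over all genes tested, threshold 0.05, 9 libraries with NTP; NTP was compared over all 18. The SE given with an edgeR value is the absolute log2 change divided by the square root of the F statistic. It is approximate and can fail where the change is small. NEAT1 fails filterByExpr, so its values use genes with 10 or more counts. CPM used all counts and a pseudocount of 100 on the log2 scale. Count intervals are 95% exact, and a count of 0 allows 3 counts. DESeq2 1.42.0 and limma 3.58.1 were alternatives, with the replicate block, other filters and each library left out. Scripts were tested on simulated data.

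Same-numbered libraries with NTP deviated together from their group means (r 0.578 to 0.800 in 9 of 9 pairs), so the repeat number was taken as pairing there. Other pairs had r of -0.577 to -0.106. Deviations from a group mean cancel within the group, so these negative values follow from the positive ones and add no support. Over all 18 libraries r passed 0.1 in 42 of 45 same-numbered pairs. The repeats also differ in depth, and the part of depth in r was not tested. Promoter windows are RefSeq (GRCh38.p14).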

Additional observations from a re-analysis of the deposited data

How the results depend on the processing

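The depth, 5272 to 164357 counts per library, limits every value of the pair, and NEAT1 had 0 to 9 counts in each library of repeats 1 and 2. With NTP, hNABP2 KO against WT for MALAT1 (0.26) turned to -0.18 with limma voom, -0.35 over both NTP conditions and -0.45 there with the replicate block, and ran from -0.78 to 0.72 with 1 library left out. NEAT1 in the same comparison (0.11) turned to -0.18 with DESeq2, -0.16 on library totals and -0.40 with voom (-0.42 to 0.84 with 1 left out). For hNABP1 KO against WT, genes called went from 0 to 16 with the block and 10 or more counts, and to 1 over both conditions with the block, where MALAT1 was -2.26. MALAT1 there was -2.13 without the block, -1.88 with 10 or more counts, and -2.44 to -1.94 with 1 library left out. NEAT1 in hNABP1 KO against WT (0.06) turned to -0.17 with DESeq2, -0.10 on totals, -0.063 without a filter, -0.037 without rRNA genes, -0.23 over both conditions and -0.31 with the block (-0.61 to 0.82). For hNABP2 KO against hNABP1 KO, calls went from 0 to 19 with the block and 10 or more counts and to 3 over both conditions with the block, where MALAT1 was 1.81, then 1.67 with voom, 1.78 without the block, 1.464 with 10 or more counts and 1.457 to 1.95 with 1 left out. NEAT1 there turned to -0.0094 with DESeq2, -0.060 on totals and -0.50 with voom (-0.51 to 0.63).

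For NTP in WT, MALAT1 turned to 0.15 on totals, and NEAT1 to -0.11 on totals, -0.059 with voom and -0.70 in repeats 1 and 2 only (-0.49 to 0.65). In hNABP2 KO NEAT1 turned to -0.0042 with DESeq2 and -0.00029 on totals (-0.43 to 1.04). In hNABP1 KO calls went to 5 with the block and 1 with the block and 10 or more counts, and NEAT1 to -0.072 in repeats 1 and 2. For the mean over genotypes calls went to 2 with the block and NEAT1 to -0.030 in repeats 1 and 2. The NTP interaction of hNABP2 KO for NEAT1 turned to 0.11 on totals, 0.23 with voom, 0.12 with the block and 1.38 in repeats 1 and 2 (-0.74 to 0.75), and that of hNABP1 KO ran from -0.018 to 1.52. The block made no member a call with NTP alone.

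Repeat 3 against repeats 1 and 2 for MALAT1 was -0.10 over filtered genes, -0.14 there on totals and -0.25 without the shallow libraries; NEAT1 was -0.20 on totals and 1.44 without the shallow libraries. In log2(CPM + 100), MALAT1 in hNABP2 KO against WT turned to -0.0086 without rRNA genes, and NEAT1 over the 9 NTP pairs to -0.0071 with a pseudocount of 1000. With 1 library left out, the CPM difference of MALAT1 ran from -0.69 to 0.77 for hNABP2 KO against WT, from -0.36 to 1.11 for NTP in hNABP2 KO and from -0.45 to 0.73 for NTP in hNABP1 KO. For NEAT1 it ran from -1.01 to 0.23, -0.39 to 0.19 and -0.94 to 0.30 for the genotype comparisons, and from -0.51 to 0.19, -0.87 to 0.70 and -0.083 to 0.91 for NTP in WT, hNABP2 KO and hNABP1 KO. The MALAT1 share ran from -6.26 to 28.1 points for hNABP2 KO against WT, -38.3 to -6.39 for hNABP1 KO against WT, 14.1 to 48.3 for hNABP2 KO against hNABP1 KO, and from -20.0 to 3.17, -11.3 to 28.6 and -26.4 to 5.56 for NTP in WT, hNABP2 KO and hNABP1 KO. Keeping peaks within 5 kb of the gene spans left 7 of 11. The cause of these changes was not tested.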
